A study of Rattus norvegicus with 2 samples.

Results

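The matrix metalloproteinases (MMP), the ADAMTS proteases, the ADAMTS-like proteins and the tissue inhibitors of metalloproteinases (TIMP) were compared between a cocaine and a control sample of rat tissue labelled as left ventricle. Their genes were chosen by symbol alone, as every named gene of the platform annotation that begins with Mmp and a digit, Timp and a digit, or Adamts, with Mmp8 left out by the rule. This gave 37 of 15037 named genes, of which 20 were MMP, 4 TIMP, 10 ADAMTS and 3 ADAMTS-like genes, each measured by 1 probe set. Cocaine was given at 20 mg/kg daily through the tail vein for 14 days. The control is labelled as untreated, whereas the methods describe saline given on the same schedule. Both samples came from male Sprague Dawley rats. Per the methods the rats were 8-week-old when divided into groups, and tissue was taken after the 14 days of dosing. Each sample was run on 1 Clariom S array, a microarray that reads a transcript with a set of short probes. Whether the RNA on an array came from 1 rat or was pooled is not stated in the sources used here. Because a single array stands for each condition, the differences have no replicate check and are given without SD or p-value, as descriptions of these samples.

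MMP and ADAMTS enzymes are zinc-dependent proteases that act outside the cell or at its surface. MMP enzymes are made as inactive precursors and cut collagens, elastin and other matrix proteins, whereas many ADAMTS enzymes cut proteoglycans such as versican and aggrecan or trim procollagens. ADAMTS-like proteins share the ancillary domains of ADAMTS enzymes but lack the protease domain, and TIMP proteins bind the active site of the proteases and block it. In the heart these families are known for matrix turnover and fibrosis, and in the lung for remodelling of alveolar walls and vessels.

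The values are normalized intensities on a linear scale, and the log2 ratio of a gene is its log2 intensity on the cocaine array minus that on the control array. To mark background, 1155 olfactory and vomeronasal receptor genes, which serve smell and are little used elsewhere, were taken, and the level that 95% of them stay under, called the background limit, was 64.1 in the cocaine sample and 71.5 in the control sample. Because binding strength varies from probe set to probe set, differences are read for the same gene between the arrays. Levels of different genes, sums over lists and places against the limit are set side by side as a rough guide only. The tissue label was checked against marker lists, and the markers went against it. All 11 measured lung epithelium markers lay above the limit on both arrays, among them Sftpc, the surfactant protein C gene, at the highest value of the table on both. Without Sftpc, whose ratio is fixed by that ceiling, the other 10 summed to 2161986 in the cocaine sample and 2176886 in the control sample. Of 13 cardiomyocyte markers, 9 lay above it in the cocaine sample and 7 in the control sample, with sums of 14137 (cocaine) and 10452 (control), and Myh7, Myl3 and Nkx2-5 lay under it on both arrays. Of these 13 markers 10 were higher in the cocaine sample, with a median log2 ratio of 1.35, and their part in the results below was not tested. All values below therefore describe tissue with bright lung markers under a left ventricle label. In a piece of tissue, fewer cells of a type and less RNA per cell cannot be told apart.

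None of the 37 genes differed 2-fold between the cocaine and the control array. Among all named genes, 0.698% were higher by that margin in the cocaine sample and 0.599% were lower, so a count of 0 among 37 lies near the background. At 1.5-fold, 3 of the 37 genes were higher, Adamts9, Timp3 and Mmp28, against 4.63% of all named genes. By the same measure 6 were lower, Mmp17, Adamts12, Adamtsl5, Mmp13, Mmp27 and Mmp20, against 4.95%, and the last 3 of these did not reach the background limit on either array. At any size 16 genes were higher and 21 lower, whereas 52.4% of all named genes were higher and 47.3% lower. The median log2 ratio of the 37 genes was -0.09, against 0.02 for all named genes. On each array 24 of the 37 genes lay above the limit, compared with 67.3% of all named genes in the cocaine sample and 66.2% in the control sample. On both arrays together 23 were above it and 12 under it, against 9763 and 4732 of the 15037 named genes. Mmp23 and Mmp7 passed it on only 1 array each, as did 542 of all named genes.

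**Figure D1:**
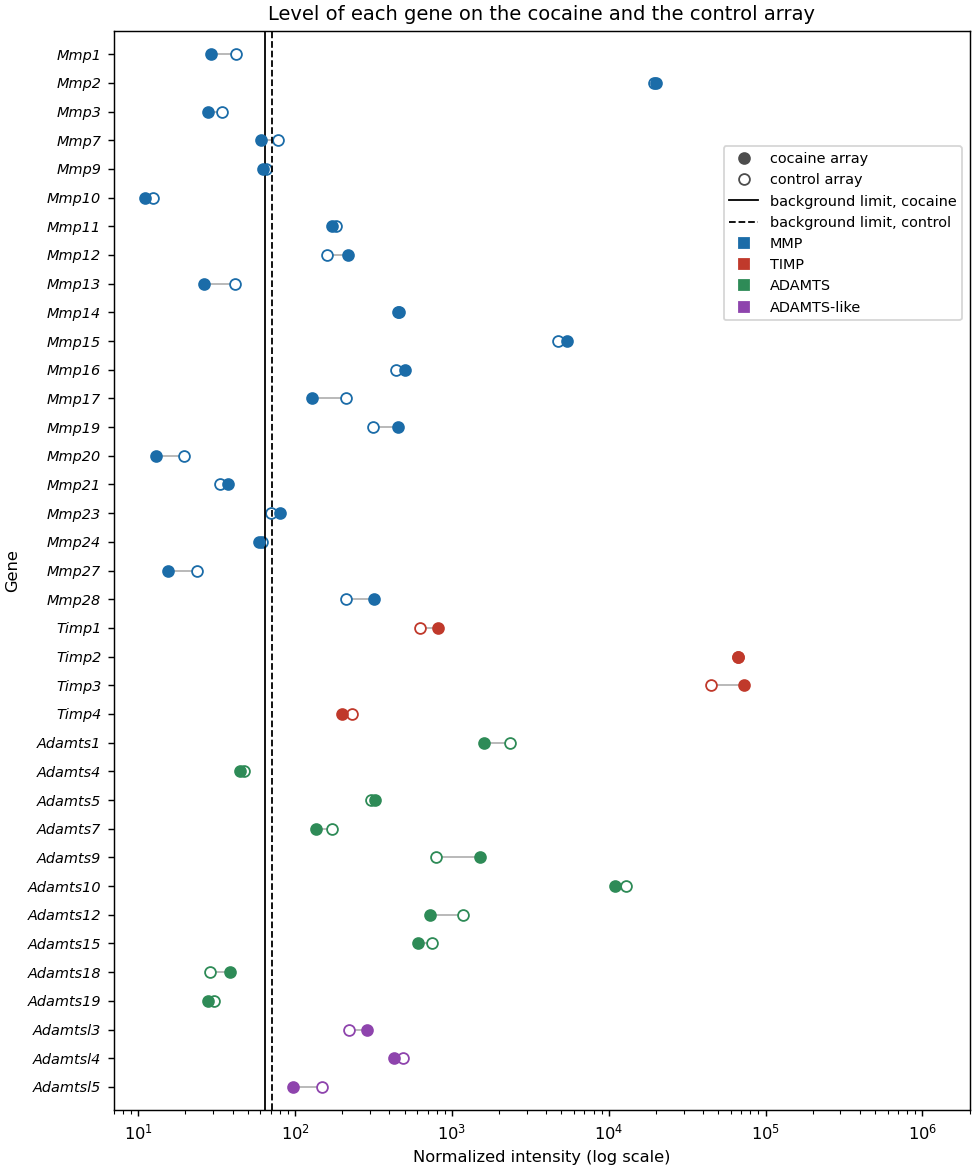
Normalized intensity (log scale) of each of the 37 genes on the cocaine array (filled) and the control array (open), coloured by family, with the background limit of each array as a vertical line. The pairs of points lie close together throughout, and 12 genes lie left of both limits, at or under 62.1 on the cocaine array.

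The TIMP genes were all above the limit, and their differences were unequal. Timp3, an inhibitor that stays bound to the matrix and also blocks ADAM17 and several ADAMTS enzymes, had an intensity of 72893 in the cocaine sample and 44776 in the control sample. It was thus 1.63-fold higher, with a log2 ratio of 0.70. Of the 1504 genes in the same decile of mean level, 11 had a larger ratio, and the central 95% of that decile ran from -0.43 to 0.53. Timp1, the inhibitor most readily induced in injured tissue, stood at 816 in the cocaine sample and 622 in the control sample, a log2 ratio of 0.39. Timp4, an inhibitor known for its abundance in heart, stood at 198 (cocaine) and 232 (control), a log2 ratio of -0.23. Timp2, which blocks MMP enzymes and also takes part in the activation of the Mmp2 precursor, was nearly equal at 66677 in the cocaine sample and 66365 in the control sample. Its log2 ratio of 0.01 turned to values between -0.05 and -0.01 when the arrays were rescaled, whereas that of Timp3 stayed between 0.66 and 0.69. The median of the 4 genes was 0.20.

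In the RefSeq annotation of the GRCr8 assembly, Timp1, Timp3 and Timp4 each lie inside a synapsin gene, which encodes a protein of nerve terminals. The host of Timp1 is Syn1 on chromosome X and that of Timp4 is Syn2 on chromosome 4, each on the opposite strand, and that of Timp3 is Syn3 on chromosome 7. Syn1 stood at 21.5 in the cocaine sample and 28.3 in the control sample, Syn2 at 41.6 (cocaine) and 44.8 (control), and Syn3 at 43.8 (cocaine) and 42.0 (control). All 3 hosts were thus under the limit on both arrays, while the inhibitors inside them were above it.

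Adamts9 had the largest difference of the 37 genes. It encodes a protease that cuts versican and aggrecan, and it stood at 1519 in the cocaine sample and 792 in the control sample, a 1.92-fold difference. Its log2 ratio of 0.94 was rank 129 from the top among all named genes, and only 7 of the 1503 genes in its decile of level had a larger one. Timp3 was the other gene above the central 95% of its decile. The promoters of both are shown because these genes had the highest ratios, as the 250 bases before the RefSeq start (GRCr8), with matches to the GC box GGGCGG, read on either strand, in capitals.
Adamts9, chr4:127019877-127020126, minus strand: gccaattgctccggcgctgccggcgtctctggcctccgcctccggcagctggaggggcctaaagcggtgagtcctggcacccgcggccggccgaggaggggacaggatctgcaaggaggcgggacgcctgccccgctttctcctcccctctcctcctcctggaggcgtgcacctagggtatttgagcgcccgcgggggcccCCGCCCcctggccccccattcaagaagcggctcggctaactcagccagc
Timp3, chr7:19459559-19459808, minus strand: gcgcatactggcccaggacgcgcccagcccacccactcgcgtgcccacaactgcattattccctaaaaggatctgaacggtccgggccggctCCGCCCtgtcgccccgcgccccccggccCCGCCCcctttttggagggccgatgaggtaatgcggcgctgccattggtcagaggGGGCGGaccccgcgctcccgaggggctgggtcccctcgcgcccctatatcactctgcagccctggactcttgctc
The stretch shown for Adamts9 held 1 such match and that for Timp3 held 3. A GC box is the short element read by Sp1-type factors, and it was found in 49.9% of the promoter windows of genes named on the array, so it is common. Over the 28 of the 37 genes with a promoter entry, 13 held it.

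**Figure D2:**
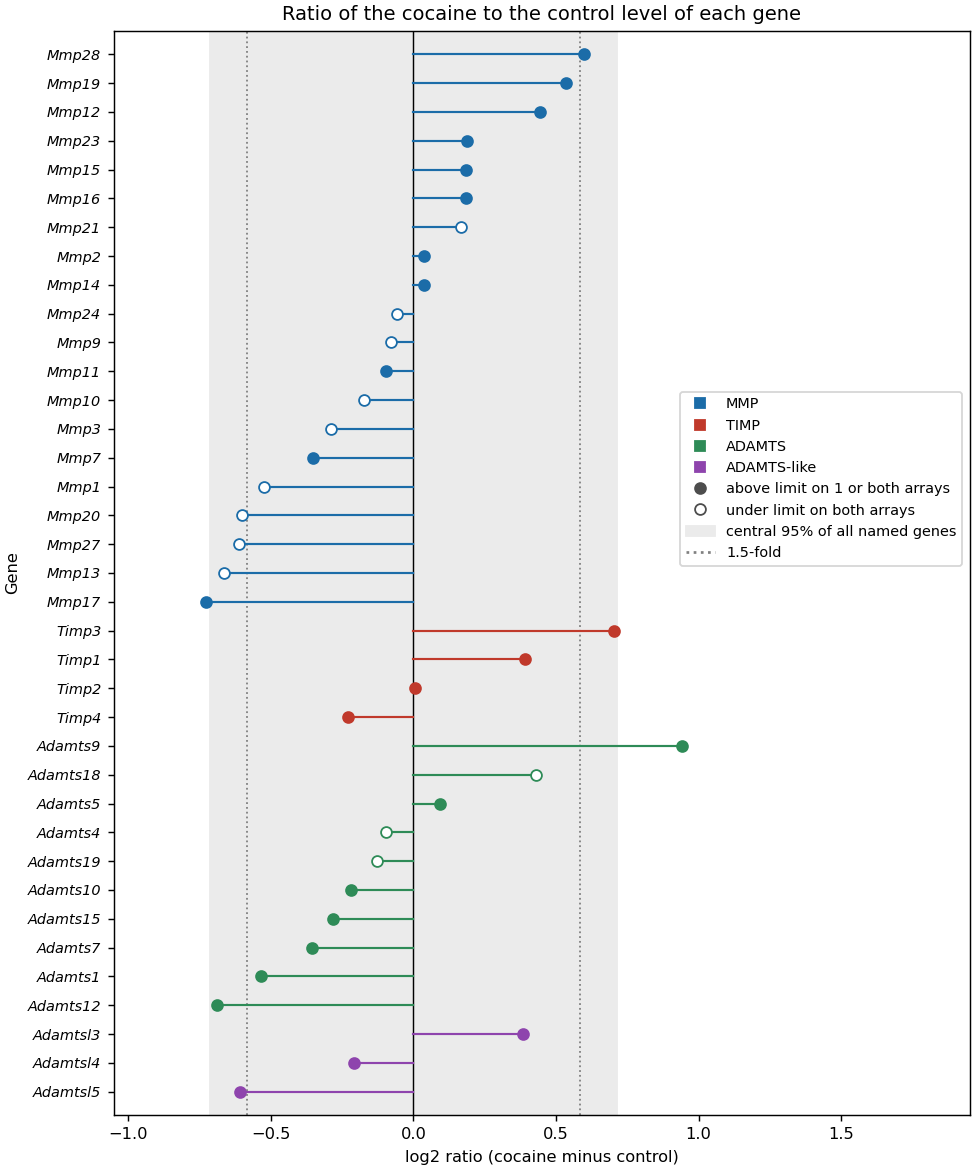
The log2 ratio (cocaine minus control) of each gene, sorted within its family, with open points for genes under the background limit on both arrays, dotted lines at 1.5-fold and a grey band for the central 95% of all named genes (-0.71 to 0.71). Adamts9 at 0.94 lies right of the band and Mmp17 at -0.73 just left of it.

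Most other ADAMTS genes were lower on the cocaine array. Here 3 of 10 were higher and 7 lower, and the median log2 ratio of -0.17 stayed between -0.19 and -0.17 under the rescalings of the arrays. Adamts12, which like its relative Adamts7 cuts the cartilage protein COMP, stood at 725 in the cocaine sample and 1169.9 in the control sample, 1.61-fold lower with a log2 ratio of -0.69. Adamts7 stood at 135 (cocaine) and 173 (control), a log2 ratio of -0.35. Adamts1, a versican protease induced by inflammation, stood at 1611 in the cocaine sample and 2332 in the control sample, a log2 ratio of -0.53. Both Adamts1 and Adamts12 lay below the central 95% of genes of like level, Adamts1 by a margin that rounding hides, and no other gene of the 37 did.
The proteoglycan-cutting genes thus had both signs, with Adamts9 higher and Adamts1 lower. Adamts5, a main aggrecan protease that lies next to Adamts1 on chromosome 11, stood at 324 in the cocaine sample and 303 in the control sample, a log2 ratio of 0.09. Adamts15, of the same group, stood at 611 (cocaine) and 744 (control), with -0.28. Adamts4, the other main aggrecan protease, was under the limit on both arrays, at 44.4 (cocaine) and 47.5 (control). The promoter of Adamts1 is shown beside that of Adamts9 because the genes share substrates and had opposite signs, with GC boxes and the TATA motif TATAAA in capitals.
Adamts1, chr11:38427385-38427634, minus strand: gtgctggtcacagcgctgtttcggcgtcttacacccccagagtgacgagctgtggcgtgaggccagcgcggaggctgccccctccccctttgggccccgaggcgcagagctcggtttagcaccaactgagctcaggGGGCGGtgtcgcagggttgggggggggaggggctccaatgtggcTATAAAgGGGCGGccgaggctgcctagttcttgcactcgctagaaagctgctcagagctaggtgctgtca
Here both GC boxes read GGGCGG along the gene, and a TATA motif lies 70 bases before the start. The Adamts9 stretch held no TATA motif. Adamts12, also lower on the cocaine array, held neither a TATA motif nor a GC box in its 250 bases before the start.
Adamts10, which binds the fibrillin microfibrils that scaffold elastic fibres, stood at 11000.0 in the cocaine sample and 12798 in the control sample, a log2 ratio of -0.22. Adamts18 and Adamts19 were under the limit, Adamts18 at 38.5 (cocaine) and 28.5 (control) and Adamts19 at 27.7 (cocaine) and 30.3 (control). Among the ADAMTS-like genes, Adamtsl5 stood at 96.96 in the cocaine sample and 148 in the control sample, 1.52-fold lower with a log2 ratio of -0.61. Adamtsl4, which binds fibrillin, stood at 425 (cocaine) and 491 (control) with -0.21, and Adamtsl3 at 287 (cocaine) and 220 (control) with 0.38. The 3 genes thus had both signs.

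The gelatinases and the membrane-type MMP genes differed little between the arrays, except Mmp17. Mmp2, the gelatinase of fibroblasts and other stromal cells that cuts denatured collagen and basement membrane, stood at 20065 in the cocaine sample and 19549.8 in the control sample, a log2 ratio of 0.04. Mmp14, the membrane-bound protease that activates the Mmp2 precursor, stood at 462 (cocaine) and 451 (control), also with 0.04. With loess or quantile scaling both ratios were between -0.02 and -0.01, so neither gene had a settled direction. Timp2, the remaining partner of this activation complex, likewise had none.
Mmp9, the gelatinase stored in neutrophil granules, was under the limit on both arrays, at 62.1 in the cocaine sample and 65.6 in the control sample. Of 9 measured neutrophil markers, 8 were higher, with summed intensities of 16257 in the cocaine sample and 5074 in the control sample. Most of both sums came from Lcn2, at 13039 (cocaine) and 3589 (control). Elane, Ngp and Camp, counted as higher, and Ltf lay under the limit on both arrays. The part of these cells in the level of Mmp9 was not tested. Mmp17, a protease held in the membrane by a lipid anchor, stood at 128 in the cocaine sample and 212 in the control sample, 1.66-fold lower with a log2 ratio of -0.73, the lowest among the 37 genes. The other membrane-type genes lay closer to 0. Mmp15 stood at 5386 in the cocaine sample and 4738 in the control sample, and Mmp16 at 504 (cocaine) and 443 (control), each with a log2 ratio of 0.18. Mmp24 was under the limit, at 58.7 (cocaine) and 61.1 (control). Like Mmp17, Mmp25 is attached by a lipid anchor, but it had no named probe set and was not analysed here.

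Mmp28, Mmp19 and Mmp12 had the highest ratios of the MMP genes. Mmp28, a protease of epithelia and macrophages also called epilysin, stood at 319 in the cocaine sample and 211 in the control sample, a 1.51-fold difference with a log2 ratio of 0.60. With the arrays rescaled its ratio was between 0.56 and 0.58, just under 1.5-fold. Mmp19, which cuts basement membrane proteins, stood at 456 (cocaine) and 315 (control), a log2 ratio of 0.53. Mmp12, the elastase of macrophages, stood at 216 in the cocaine sample and 159 in the control sample, a log2 ratio of 0.44. Beside it, 9 of 10 measured macrophage markers were lower, with a median log2 ratio of -0.43 and summed intensities of 15767 in the cocaine sample and 20714 in the control sample. Most of both sums came from Mrc1, at 9181 (cocaine) and 12101 (control). Marco and Siglec1, counted as lower, lay under the limit, Marco on both arrays and Siglec1 in the cocaine sample. The difference of Mmp12 and that of the macrophage list thus had opposite signs, and the part of these cells was not tested. Mmp11, a stromelysin cut to its active form by furin, stood at 171 (cocaine) and 183 (control), and Mmp23, an MMP without the hemopexin domain, at 80.5 (cocaine) and 70.7 (control), the control value just under the limit.

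**Figure D3:**
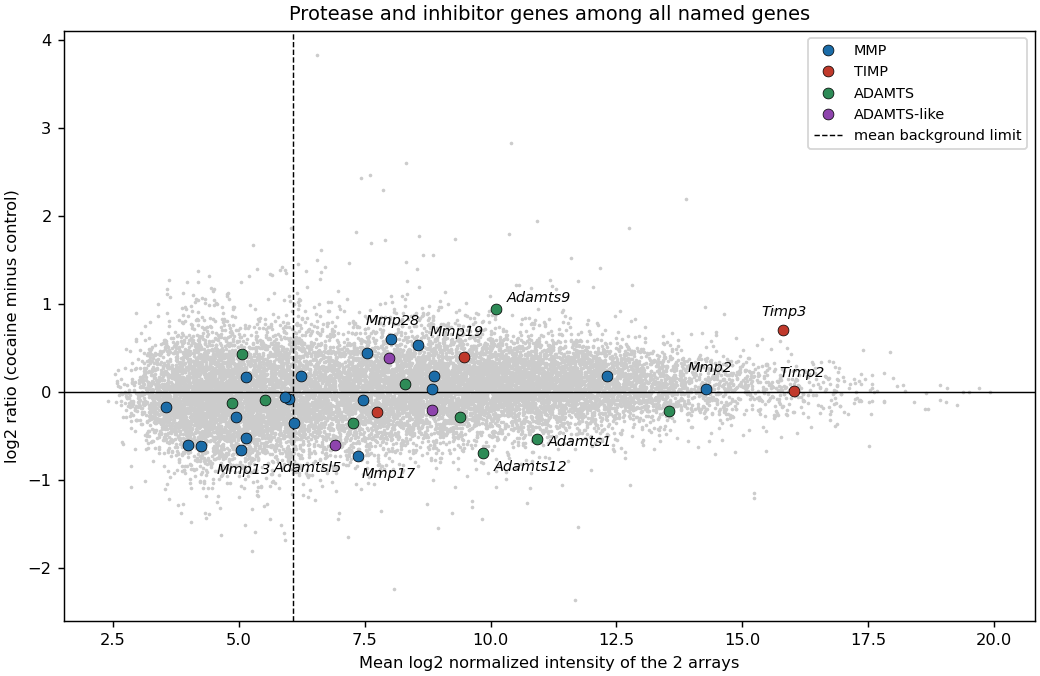
The log2 ratio (cocaine minus control) against the mean log2 intensity of the 2 arrays for all 15037 named genes (grey) and the 37 genes (coloured by family), with the mean background limit as a dashed line. Timp3 at 0.70 and Adamts9 at 0.94 lie at the upper edge of genes of their level, and no coloured point reaches 1 in either direction.

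Most genes of the MMP cluster on chromosome 8 were dim, with 6 of 8 under the limit on both arrays, against 4732 of the 15037 named genes. Mmp7 was under it in the cocaine sample only, and Mmp12 above it on both. In RefSeq (GRCr8) the cluster spans 10 protein-coding genes. Among them Mmp1b, between Mmp12 and Mmp3, and Mmp8, between Mmp10 and Mmp27, were not analysed here. The other 8 belong to the 37 genes, in the order Mmp13, Mmp12, Mmp3, Mmp1, Mmp10, Mmp27, Mmp20 and Mmp7. They include the collagenases Mmp1 and Mmp13, which cut fibrillar collagen, the stromelysins Mmp3 and Mmp10, which cut many matrix proteins and activate other MMP precursors, and the small epithelial protease matrilysin, Mmp7. Their promoters are shown because most carry the same pair of elements, an AP-1 motif and a TATA motif close to the start. AP-1, the dimer of Jun and Fos proteins, is the classical inducer of collagenase and stromelysin genes. Each line gives the 100 bases before the start on the plus strand, with matches to TGANTCA, the AP-1 motif with any centre base, and to TATAAA in capitals.
Mmp13, chr8:12782729-12782828: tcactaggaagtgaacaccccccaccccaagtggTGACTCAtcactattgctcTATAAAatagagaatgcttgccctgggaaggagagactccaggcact
Mmp12, chr8:12866552-12866651: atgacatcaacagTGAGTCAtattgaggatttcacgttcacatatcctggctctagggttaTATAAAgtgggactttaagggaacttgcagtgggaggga
Mmp3, chr8:12925181-12925280: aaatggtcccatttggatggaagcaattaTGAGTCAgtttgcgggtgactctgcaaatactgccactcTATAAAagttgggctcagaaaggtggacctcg
Mmp1, chr8:12943353-12943452: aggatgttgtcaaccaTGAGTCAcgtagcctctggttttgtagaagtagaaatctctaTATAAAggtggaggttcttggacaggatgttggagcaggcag
Mmp10, chr8:12974607-12974706: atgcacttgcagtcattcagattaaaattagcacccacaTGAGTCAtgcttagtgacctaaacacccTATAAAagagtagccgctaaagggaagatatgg
Mmp20, chr8:13074179-13074278: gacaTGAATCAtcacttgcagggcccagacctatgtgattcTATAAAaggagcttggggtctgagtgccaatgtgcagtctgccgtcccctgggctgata
Mmp7, chr8:13132943-13133042: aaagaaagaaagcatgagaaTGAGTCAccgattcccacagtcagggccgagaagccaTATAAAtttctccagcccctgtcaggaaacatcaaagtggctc
Within windows from 250 bases before to 50 after the start, 7 of the 8 cluster genes held TGANTCA, and Mmp27 was the exception. Of the 20 other genes with a promoter entry, 0 held it. It was found in 6.41% of the 12924 promoter windows of genes named on the array and in 7.33% of all 33469 windows. The motif reads the same on both strands. Its usual form, TGAGTCA read on either strand (on the minus strand in Mmp13), is a subset of these matches and was present in 6 cluster genes, against 4.02% of windows of named genes. The centre base of the Mmp20 match was an A.
The AP-1 match nearest the start lay between 61 bases (Mmp10) and 96 bases (Mmp20) before it, and Mmp1 held a further match 242 bases before the start. TATAAA, searched on both strands, was found in 7 of the 8 cluster genes and in 4 of the 20 others, against 11.6% of windows of named genes. In Mmp10 and Mmp7 it also occurred farther from the start. No cluster gene held a GC box, compared with 13 of the 20 others. These counts describe the windows of these families and were not tested.

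**Figure D4:**
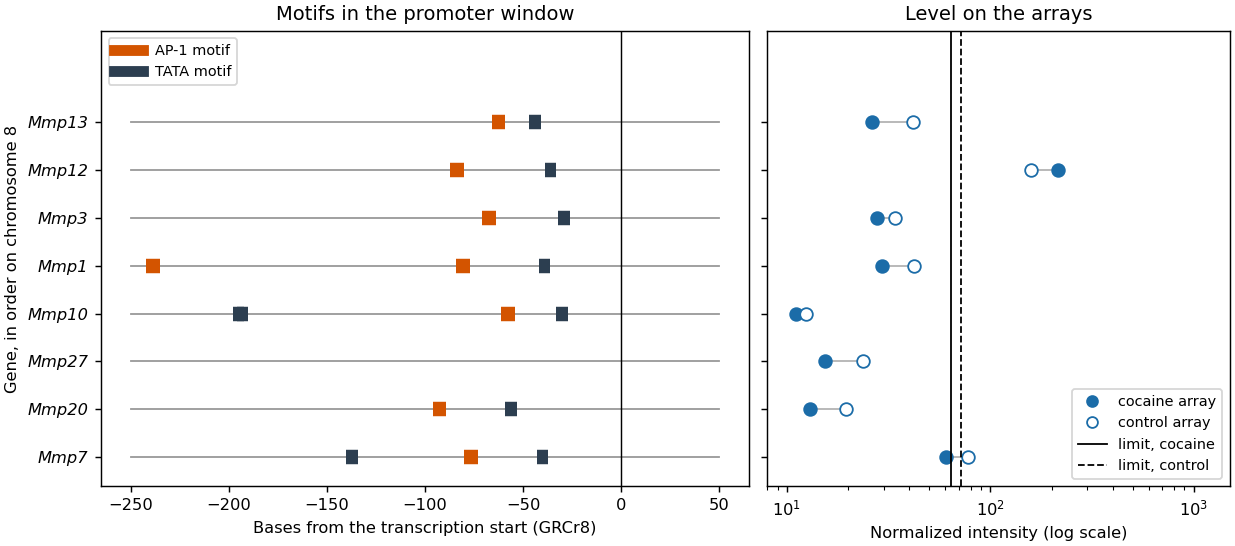
Left, positions of AP-1 and TATA motif matches in bases from the transcription start for the 8 MMP genes of the cluster, in chromosome order. Right, their normalized intensity (log scale) on the cocaine array (filled) and the control array (open) with the background limits as lines, where Mmp12, at 216 (cocaine) and 159 (control), is the gene above the limit on both.

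Apart from Mmp12, described above, these genes had values close to background. Mmp7 was at 60.8 in the cocaine sample, under the limit, and at 77.6 in the control sample, a log2 ratio of -0.35. Mmp13 stood at 26.3 in the cocaine sample and 41.7 in the control sample, Mmp1 at 29.3 (cocaine) and 42.0 (control), and Mmp3 at 27.8 (cocaine) and 34.0 (control). Mmp27 stood at 15.4 (cocaine) and 23.6 (control), Mmp20 at 12.9 (cocaine) and 19.6 (control), and Mmp10 at 11.1 (cocaine) and 12.5 (control). Hence 7 of the 8 cluster genes were lower on the cocaine array, with a median log2 ratio of -0.44, but 6 of them lay under the limit on both arrays. Dim genes leaned lower in general, but by less than the cluster did. The part of this lean in the cluster values was not tested. Among the 12 genes of these families under the limit on both arrays, 2 were higher, with a median log2 ratio of -0.15. Of the 4732 named genes under the limit on both arrays, 41.1% were higher, with a median log2 ratio of -0.07, and the same median over the receptor genes that set the limit was -0.07. With values on both arrays raised to the higher of the limits, 71.5, the 6 genes had a log2 ratio of 0 by construction. Mmp21, a further gene under the limit, stood at 37.6 in the cocaine sample and 33.4 in the control sample.
For the AP-1 genes themselves, Jun stood at 3965 in the cocaine sample and 4359 in the control sample, a log2 ratio of -0.14. Fos stood at 230 (cocaine) and 372 (control), with -0.69. Junb, Jund and Fosl2, also above the limit on both arrays, went the other way, with 0.10, 0.05 and 0.21. Fosb and Fosl1 lay under the limit on both. A promoter match is a description of these letters and not a site shown to be used.

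Among the 23 genes above the limit on both arrays, 13 were higher and 10 lower and the median log2 ratio was 0.04, against 0.05 over the 9763 named genes above it on both. Of the 9 MMP genes above the limit, 7 were higher and 2 lower (median 0.18), and of the 7 ADAMTS genes, 2 were higher and 5 lower (median -0.28). At this level 57.5% of named genes were higher.

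Genes that act with these families were set beside them from lists of activators, other inhibitors, ADAM proteases, substrates and inducers. In all 5 lists the median log2 ratio lay between -0.20 and 0.09. Of 9 activators, 5 were higher and 4 lower (median 0.03), and 0 were higher and 1 lower by 1.5-fold. That gene, Plau, encodes urokinase, which makes plasmin from plasminogen, and it stood at 465 in the cocaine sample and 808 in the control sample, 1.74-fold lower. Its receptor gene Plaur and the related activator Plat were nearly equal, with log2 ratios of 0.03 each. Furin, the convertase that trims the precursors of membrane-type MMP and ADAMTS enzymes, had 0.21.
Of 11 measured other inhibitors, 5 were higher and 5 lower (median 0.00). Serpine2, which blocks urokinase and thrombin, stood at 197 in the cocaine sample and 362 in the control sample, 1.84-fold lower. Plau and its inhibitor thus differed in the same direction. Thbs1, a matrix protein that binds several proteases, had a log2 ratio of 0.53. The list of ADAM genes, relatives of which several shed proteins from the cell surface, held 12 of that larger family. The 6 of them that were measured had ratios from -0.09 to 0.40 (Adam23, a member without protease activity, under the limit in the control sample). The shedding enzymes Adam10 and Adam17 had 0.17 and 0.01.
Of 20 measured substrates, 6 were higher and 14 lower (median -0.20). Vcan, which encodes versican, the proteoglycan cut by Adamts1, Adamts5 and Adamts9, stood at 187 in the cocaine sample and 98.95 in the control sample, a 1.89-fold difference. Acan, which encodes aggrecan, was under the limit on both arrays, at 31.3 (cocaine) and 36.9 (control). Lum, the proteoglycan lumican, had 0.59, whereas Eln and Fbn1, which encode elastin and fibrillin of the elastic fibre, had -0.40 and -0.41. The collagen genes were unequal. Col1a1 had -0.48, Col2a1 -0.36, Col5a1 -0.25, Col4a1 -0.16, Col1a2 -0.03 and Col3a1 0.17. Of 15 inducers, 7 were higher and 8 lower (median 0.00). Il1b, a cytokine that induces several MMP genes, stood at 727 in the cocaine sample and 354 in the control sample, a 2.05-fold difference, and the transcription factor gene Ets2 had 0.70. The 10 measured markers of fibroblasts, cells that make much of the matrix and of Mmp2 and Timp3, had a median of -0.06. Of these, 9 were above the limit on each array and Fap under it on both, with sums of 146658 in the cocaine sample and 147389.9 in the control sample. Of 8 endothelium markers 6 were higher (median 0.10), and of 6 smooth muscle markers 4 were higher (median 0.05). The part of these cells in the ratios of the 37 genes was not tested.

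**Figure D5:**
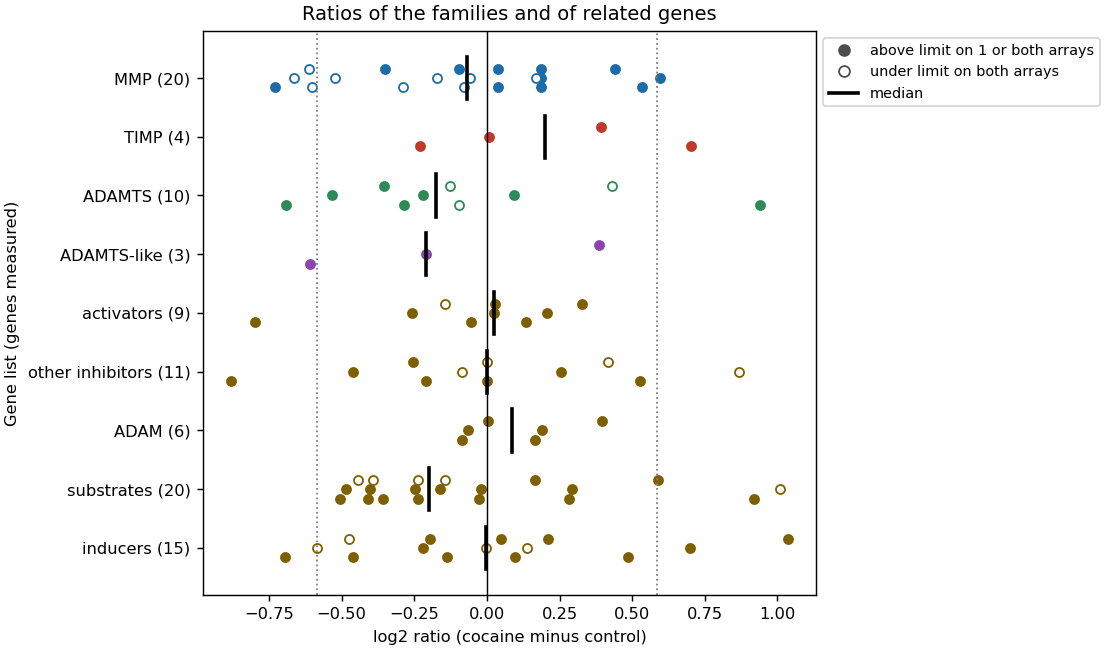
Log2 ratio (cocaine minus control) of each gene of the 4 families and of 5 lists of related genes, with the number of measured genes in brackets, open points for genes under the background limit on both arrays, black bars for medians and dotted lines at 1.5-fold. The medians lie between -0.21 (ADAMTS-like) and 0.20 (TIMP), while single genes spread from -0.88 (Serpine2) to 1.04 (Il1b).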

How the data were processed

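For every probe set the deposited value is a linear, normalized intensity made by the authors. MAS5 is the tool in the submitters' processing notes and the Transcriptome Analysis Console that in the methods. Versions, genome build and settings, not given in the sources used here, could not be checked. In all, 24834 probe sets were read. The platform annotation pairs 15049 of them with 1 gene symbol and 0 with several, and the rest were unnamed or controls and were not used. Values were taken to log2 with no pseudocount, and the mean was used for the 10 genes with several probe sets, none of them among the 37. A single array stands for each condition, which allows no test and sets the precision. Genes with the full values in the text were all TIMP genes, those at least 1.5-fold different and above the background limit on either array, and the highest MMP and ADAMTS genes on the cocaine array, with relatives set beside them. The genes, lists and rules were chosen with earlier results of these data known, and the comparison within deciles of level and the printed promoters after the values had been seen. All 37 genes matched the RefSeq table of GRCr8 by gene ID, which was used for names, chromosomes and neighbours, and 28 had a promoter entry. In the RefSeq table, 13 further protein-coding genes of these families had no named probe set (Adamts2, Adamts3, Adamts6, Adamts8, Adamts13, Adamts14, Adamts16, Adamts17, Adamts20, Adamtsl1, Adamtsl2, Mmp1b and Mmp25) and were not analysed here. Alternatives were array median centring, quantile and loess scaling (span 0.3), floors at the background limit and at the 25th percentile, a pseudocount of 16, level filters, a 1.5-fold threshold and limits at the 90th and 99th percentile of the receptor genes. The steps were tested on simulated data with planted differences larger than any among the 37 genes. Differences of the size reported here were not simulated. Python 3.11.15 with numpy 2.4.6, pandas 2.3.3, statsmodels 0.14.6 and matplotlib 3.10.9 was used.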

Additional observations from a re-analysis of the deposited data

How the results depend on the processing

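No paired analysis was possible because each condition has 1 array. No gene of the 37 reached 2-fold in either direction under the 6 scalings, floors and pseudocount tried, and none of those at least 1.5-fold different at deposited values turned its direction. At the 1.5-fold threshold the counts were 3 higher and 6 lower, against 0 and 0 at 2-fold. With median centring the 1.5-fold counts were 2 higher and 6 lower, against 4.12% and 5.37% of all named genes. The shares of all named genes follow in brackets for the other settings. The counts were 2 and 5 with quantile scaling (4.6% and 4.69%) and with loess scaling (4.68% and 4.57%). They were 3 and 3 with the background floor (2.87% and 1.88%) and with the 25th percentile floor (3.41% and 2.74%). A pseudocount of 16 gave 2 and 2 (3.0% and 2.23%). Adamts9, Timp3, Mmp17 and Adamts12 were among the genes counted in each case. The medians followed the level filter. With genes whose mean level reached the background limit (25 genes), the median log2 ratio was 0.037 for all genes, 0.18 for MMP and -0.28 for ADAMTS genes, so that the sign for all genes and for MMP genes turned from the unfiltered -0.09 and -0.07. With genes at or above the median level (17 genes), it was 0.094 for all, 0.18 for MMP, 0.39 for TIMP and 0.087 for ADAMTS-like genes, the last from 2 genes and of the opposite sign to the unfiltered -0.21. With a common floor at the higher background limit, the medians of all genes and of MMP genes were 0. The count of genes above the limit on each array was 27 with the 90th percentile, and with the 99th it was 22 in the cocaine sample and 23 in the control sample. Of 62 alternative values of the medians and counts, 9 moved, all of them among those above. Among single genes near 0, Timp2 had a negative ratio under all 3 scalings, Mmp2 and Mmp14 under quantile and loess scaling, and the sign of Mmp24 turned under loess. Adamts18 and Mmp21, under the limit, had -0.10 with the floor at the 25th percentile, but the floor set these values. Mmp21 was raised to it on both arrays, so its ratio is by construction the gap between the floors. Mmp3, Mmp10, Mmp20, Mmp27 and Adamts19 had the same value. Adamts18 was raised to the floor in the control sample and lay just above it in the cocaine sample. These sign turns therefore say nothing about the genes. Values under the background limit have no order, and differences among them cannot be read.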
